A study of Mus musculus with 16 samples.

Results

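The 10 genes followed here set the balance between protein loss and protein gain in muscle, and they were measured in the skeletal muscle of mice fed a high-fat diet (HFD). The 10 members were chosen by name from the 55471 genes of the count table: the ubiquitin ligases Fbxo32, Trim63 and Fbxo30, the transcription factor Foxo3, the secreted regulators Mstn, Fst and Igf1, the receptor Eda2r, and the stress- and hormone-responsive genes Ddit4 and Klf15. Each matched 1 row of the table, and all 10 were among the 14331 genes that passed the filter on low counts. Bulk RNA sequencing had been carried out on muscle of 16 male mice, 10 labelled Npr1+/- and 6 labelled Npr1+/+ littermates. Npr1 encodes guanylyl cyclase A (GCA), the receptor of atrial natriuretic peptide, and the Npr1+/- mice carry 1 targeted allele in every tissue. All the mice descended from the B6.129-Npr1tm1Gar/J line crossed back to C57BL/6J for at least 10 generations. The study used mice of 12 weeks of age and gave an HFD with 60% of its kcal from lipids for 12 weeks, so no group on standard diet is at hand and all comparisons are among obese mice. The muscle that was sequenced is not named in the labels. Body weight was 43.6 ± 3.79 g (SD, n = 10) under the Npr1+/- label and 47.4 ± 4.69 g (SD, n = 6) under the Npr1+/+ label. The mice came from 4 cages of 3 to 5 animals, and each cage held both labels.

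Between 15273472 and 59682677 reads were assigned to genes per library. Transcripts listed for fast fibers far exceeded those listed for slow fibers in every library. The 10 fast-fiber markers summed to between 122133 and 201323 CPM (counts scaled to library size), against at most 258 CPM for 8 slow-fiber markers. Acta1 and Ckm, at means of 28936 and 25469 CPM, are in the first list but are not specific to fast fibers. The fast myosin gene Myh4 had a mean of 17879 CPM, against 2.76 CPM for the slow myosin gene Myh7. The Npr1 transcript did not separate the labels. Its mean was 13.6 ± 3.87 CPM for the 10 Npr1+/- libraries and 12.2 ± 1.05 CPM for the 6 Npr1+/+ libraries (SD), with a fitted log2 fold change of 0.09 (SE 0.20). The labels are therefore used below as given, and directions are between libraries labelled Npr1+/- and libraries labelled Npr1+/+. A single pattern ran through much of the data. The leading principal component of log2 CPM held 43.7% of the variance over the genes tested, and across genes the correlation with it followed transcript length (r = 0.54 over 14318 genes, which are not independent replicates). Libraries 5, 6 and 7 of the Npr1+/- label stood apart on this pattern. Their contrast between the longest 10% and the shortest 10% of transcripts was 0.80 to 1.41 log2 units above that of the average mouse, whereas the other 13 libraries lay between -0.82 and 0.26. Library 5 was also the most deeply sequenced. Values without these 3 libraries are given beside many of the results below.

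Muscle mass depends on the balance between synthesis of contractile proteins and their removal by the ubiquitin-proteasome system and autophagy. When signaling by insulin and insulin-like growth factor 1 falls, FoxO transcription factors enter the nucleus and switch on ubiquitin ligases, glucocorticoids add to this program through their receptor, and myostatin restrains growth through activin receptors while follistatin captures it. The transcripts of these regulators are widely read as markers of atrophy, although a transcript level is not a rate of protein loss. In bulk tissue, fewer cells of a type and less RNA per cell cannot be told apart.

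Levels between genes were compared as reads per kilobase of gene length, scaled to library size (RPKM), since longer transcripts collect more reads. The ligase gene Trim63 was the most abundant of the 10, with a median of 90.7 RPKM over the 16 mice, and it lay above Fbxo32, at 42.6 RPKM, in 16 of 16 mice. Klf15 and Mstn followed with medians of 25.4 and 13.4 RPKM, and Klf15 was above Mstn in 14 of 16 mice. The median of Ddit4 was 6.19 RPKM, and it exceeded Mstn in 2 of 16 mice, both of them in the cage described further on. Eda2r and Fbxo30 could not be ordered, with medians of 4.24 and 4.23 RPKM and Eda2r the higher of the pair in 7 of 16 mice. Foxo3, Igf1 and Fst closed the order with medians of 1.87, 1.31 and 0.528 RPKM. The order of Foxo3 over Igf1 held in 11 of 16 mice and that of Igf1 over Fst in 16 of 16. Fst rested on 19 to 175 counts per library, the least of the 10 members.

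**Figure D1:**
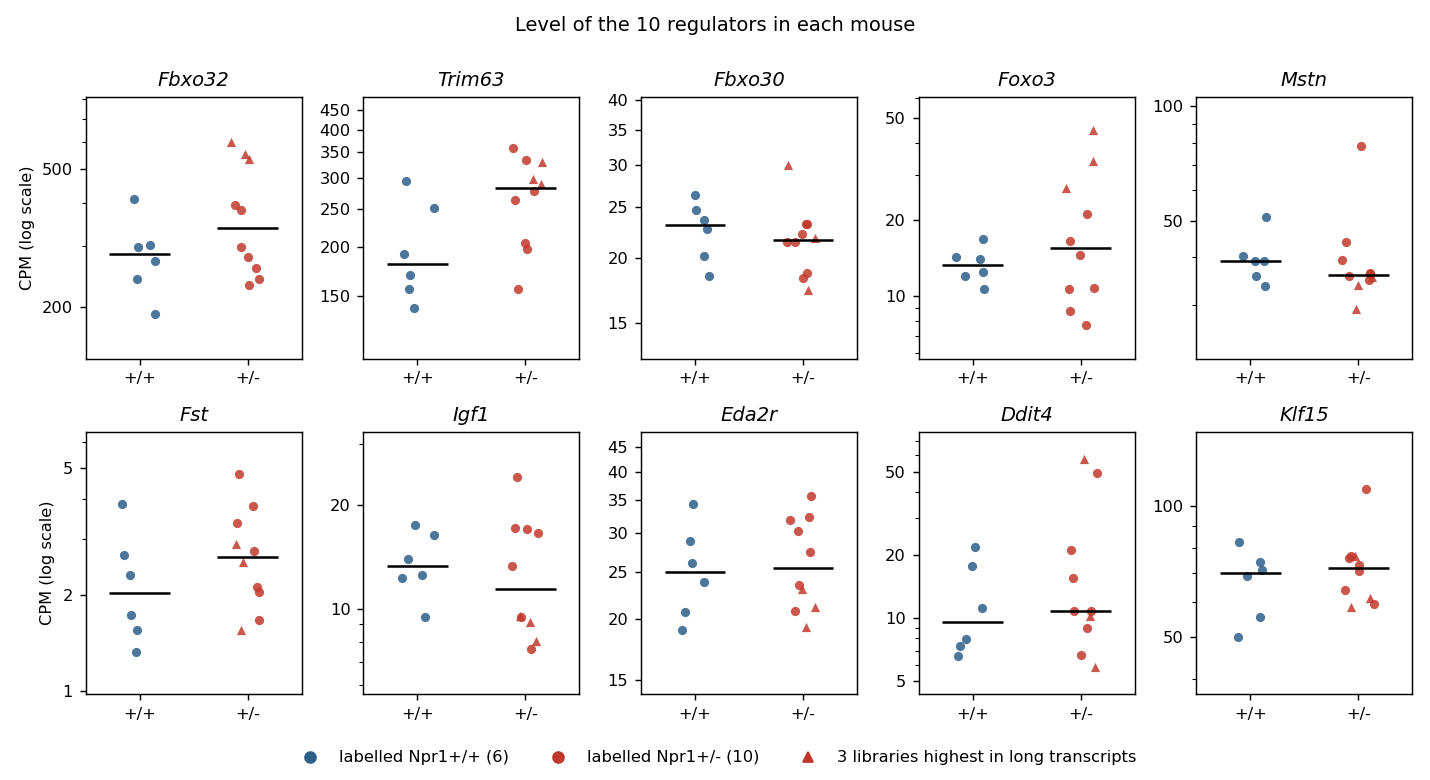
Level of each of the 10 genes in CPM (log axis) in the libraries labelled Npr1+/+ (6, blue) and Npr1+/- (10, red). Points are mice, black lines are medians, and triangles are the 3 Npr1+/- libraries highest in long transcripts. The groups overlapped for all 10 genes, and the triangles were the 3 highest mice for Fbxo32 and for Foxo3.

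None of the 10 genes passed the test between the labels. In the edgeR fit with cage and body weight as covariates, 0 of the 10 members had an adjusted p under 0.05 and 0 had an unadjusted p under 0.05, against 0% and 1.05% of all genes tested (0 and 151 of 14331, the latter with 0.544% higher and 0.509% lower). Of the members, 7 of 10 had a log2 fold change above 0, with a median of 0.08 over the members and -0.01 over all genes tested. The adjusted p was 1.0 for each of the 10 (edgeR, quasi-likelihood F test), and DESeq2 and limma-voom called 0 of the 10 as well.

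Among the ubiquitin ligases, Fbxo32 (atrogin-1, ENSMUSG00000022358, chr15:58175879-58214932, minus strand, GRCm38), the F-box subunit that presents MyoD and initiation factor eIF3f for degradation, ran from 231 to 601 CPM with a median of 339 in the libraries labelled Npr1+/-. It ran from 191 to 410 CPM with a median of 284 in those labelled Npr1+/+. The ranges overlapped, and the 3 values above every Npr1+/+ mouse (534 to 601 CPM) were those of libraries 5, 6 and 7. The log2 fold change was 0.05 with an SE of 0.21, and it was -0.22 with an SE of 0.18 without these 3 libraries. Trim63 (MuRF1, ENSMUSG00000028834, chr4:134315120-134329629, plus strand), the RING-finger ligase of the sarcomere that marks thick-filament proteins, had a lowest, median and highest value of 156, 284 and 360 CPM under the Npr1+/- label and of 140, 181 and 295 CPM under the Npr1+/+ label. In 4 Npr1+/- mice Trim63 lay above the highest Npr1+/+ mouse, and the log2 fold change was 0.12 with an SE of 0.19. Without libraries 5, 6 and 7 it was -0.04 with an SE of 0.20. Fbxo30 (MUSA1, ENSMUSG00000047648), a ligase that is restrained by bone morphogenetic protein signaling, was the steadiest member. It lay between 17.3 and 30.0 CPM in all 16 mice, and the log2 fold change was -0.08 with an SE of 0.16.

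Foxo3 (ENSMUSG00000048756, chr10:42181841-42276752, minus strand), the FoxO factor best known as an activator of Fbxo32 and of autophagy genes, spread more among the Npr1+/- mice than among the Npr1+/+ mice. Its lowest, median and highest values were 7.68, 15.5 and 45.1 CPM in the libraries labelled Npr1+/- and 10.7, 13.3 and 16.8 CPM in those labelled Npr1+/+. Library 7 was highest, followed by libraries 6 and 5, and the remaining Npr1+/- mice lay on both sides of the Npr1+/+ range. The log2 fold change was 0.10 with an SE of 0.34, and -0.14 with an SE of 0.27 without the 3 libraries. The SD of log2 CPM was 0.86 under the Npr1+/- label with libraries 5, 6 and 7 included, and 0.22 under the Npr1+/+ label.

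Of the secreted regulators, Mstn (myostatin, ENSMUSG00000026100, chr1:53061640-53068079, plus strand), the muscle-made inhibitor of muscle growth, ran from 29.3 to 78.5 CPM (median 35.9) under the Npr1+/- label and from 33.5 to 51.1 CPM (median 39.1) under the Npr1+/+ label. The highest value belonged to Npr1+/- mouse 8 and stood far above the other 15 mice. Although the raw medians ran the other way, the log2 fold change at equal cage and weight was 0.19 with an SE of 0.20. Fst (follistatin, ENSMUSG00000021765), the extracellular antagonist of myostatin and activins, had the smallest p of the 10 members for the label. It lay between 1.55 and 4.79 CPM under the Npr1+/- label and between 1.32 and 3.84 CPM under the Npr1+/+ label, the log2 fold change was 0.50 with an SE of 0.25, and the unadjusted p of 0.0678 (edgeR) ranked 213 among all genes tested. Without the 3 libraries the log2 fold change of Fst was 0.30 with an SE of 0.29. Igf1 (ENSMUSG00000020053, chr10:87858265-87937042, plus strand), the growth factor that drives the Akt and mTORC1 pathway, did not separate the labels, with 7.65 to 24.1 CPM under Npr1+/- and 9.46 to 17.5 CPM under Npr1+/+. Its log2 fold change was -0.05 with an SE of 0.21.

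Eda2r (ENSMUSG00000034457, chrX:97333840-97377216, minus strand), the receptor of ectodysplasin A2 that signals to NF-kB, had means closer together than the spread between mice. It was 26.6 ± 5.76 CPM (SD, n = 10) under Npr1+/- and 25.5 ± 5.66 CPM (SD, n = 6) under Npr1+/+, and the log2 fold change of -0.00 had a 95% interval from -0.34 to 0.33. Ddit4 (REDD1, ENSMUSG00000020108, chr10:59949669-59951834, minus strand), the stress-induced inhibitor of mTORC1, had the largest log2 fold change of the members, 0.52 with an SE of 0.32. Its unadjusted p was 0.125 (edgeR), and the 10 Npr1+/- values, 5.87 to 57.4 CPM, spanned the 6 Npr1+/+ values, 6.61 to 21.98 CPM. The log2 fold change of Ddit4 was 0.34 with an SE of 0.30 without the 3 libraries, 0.34 without Npr1+/- mouse 6 alone and 0.86 without Npr1+/+ mouse 5. Klf15 (ENSMUSG00000030087), a glucocorticoid-induced factor of amino acid catabolism, was 72.5 ± 14.8 CPM (SD, n = 10) and 67.0 ± 12.1 CPM (SD, n = 6), with a log2 fold change of 0.05 and an SE of 0.17. The 95% intervals here were made from the SE with a normal quantile, which is narrow for 10 residual degrees of freedom. Read with that limit, they give log2 fold changes compatible with these 16 mice. They reached from -0.36 to 0.47 for Fbxo32, from -0.26 to 0.50 for Trim63, from -0.56 to 0.76 for Foxo3, from -0.20 to 0.59 for Mstn and from -0.47 to 0.36 for Igf1 on the log2 scale.

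**Figure D2:**
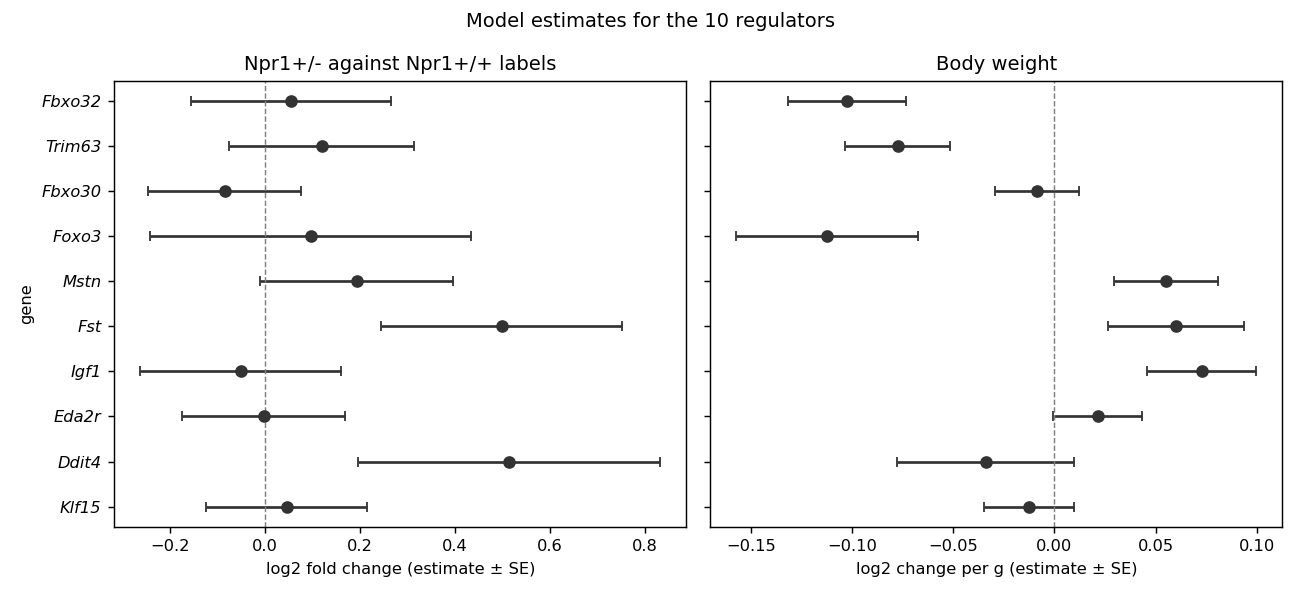
Estimates for the 10 genes from the edgeR fit of 16 mice. The left panel gives the log2 fold change of Npr1+/- over Npr1+/+ labels and the right panel the log2 change per g of body weight, as estimate ± SE. No label estimate had an unadjusted p under 0.05, and Fbxo32, Trim63 and Foxo3 had slopes below 0 while those of Mstn and Igf1 were above 0.

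Partner genes of the same pathways, listed by role, were read from the same fit. The lists held 19 further ubiquitin-system genes of muscle, namely ligases, ubiquitin genes and the deubiquitinases Usp14 and Usp19. They also held 18 FoxO and autophagy genes and 21 genes of myostatin, activin and BMP signaling. The rest were 27 genes of IGF and mTORC1 signaling, 16 genes of the EDA2R, NF-kB and p53 group and 16 glucocorticoid-responsive genes. None passed an adjusted p under 0.05 for the label (edgeR). Of them, 2 had an unadjusted p under 0.05, Irs2 and Mt2, where 1.05% of all genes did. This count is near that share. The smallest unadjusted p among those with higher levels under Npr1+/- were those of Irs2, an adaptor of the insulin receptor (log2 fold change 0.85, SE 0.37, p = 0.0330, adjusted p = 1.0, edgeR), Per1, a clock gene that glucocorticoids induce (0.66), and Cebpd (0.55). Irs2 was 16.3 ± 10.2 CPM (SD, n = 10) against 6.16 ± 1.81 CPM (SD, n = 6). Among those with lower levels they were Mt2, a metallothionein (log2 fold change -0.62, unadjusted p = 0.0331, edgeR), Gadd45a (-0.23) and Sesn1 (-0.16).

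Of the 10 genes, 5 had a body weight slope at an unadjusted p under 0.05 and none passed the adjustment, with negative slopes for Fbxo32, Trim63 and Foxo3 and positive slopes for Mstn and Igf1. The 16 mice weighed 36.5 to 54.0 g. Fbxo32 was 601 CPM in the lightest mouse (Npr1+/- mouse 7, 36.5 g) and 240 CPM in the heaviest (Npr1+/+ mouse 3, 54.0 g), while Mstn was 29.3 and 51.1 CPM in the same mice. At equal label and cage, Fbxo32 had a slope of -0.10 log2 units per g (SE 0.029, unadjusted p = 0.00268, edgeR), Trim63 had a slope of -0.08 (SE 0.026, p = 0.00855) and Foxo3 one of -0.11 (SE 0.045, p = 0.0233). The slopes of Igf1 and Mstn were 0.07 (SE 0.027, p = 0.0161) and 0.06 (SE 0.026, p = 0.0471). None of these passed the adjustment over all genes tested, with adjusted p between 0.245 and 0.288 (edgeR): 0 of 10 members and 0% of all genes were called, and DESeq2 and limma-voom also called 0 of 10. At an unadjusted p under 0.05, 5 of 10 members were counted, 3 with a negative and 2 with a positive slope, where 17.1% of all genes were (12.3% with a negative and 4.74% with a positive slope). The other slopes were 0.06 for Fst (unadjusted p = 0.0937), 0.02 for Eda2r, -0.01 for Fbxo30 and Klf15 and -0.03 for Ddit4.

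The calls on weight changed when libraries were left out. Without Npr1+/- mouse 3, a light mouse of 40.1 g with low Igf1, 3 members passed the adjustment, Fbxo32 at an adjusted p of 0.00459, Foxo3 at 0.00807 and Trim63 at 0.0271 (edgeR), and with them 3158 genes in all. Without libraries 5, 6 and 7, of which mice 7 and 5 were the lightest of the 16, the slope of Foxo3 was -0.03 (SE 0.035, unadjusted p = 0.410, edgeR). The slopes of Fbxo32 and Trim63 were then both -0.07 (unadjusted p = 0.0104 and 0.0191), where 5.05% of genes had an unadjusted p under 0.05. With the transcript length contrast as a further covariate, Foxo3 had a slope of -0.02 (unadjusted p = 0.506, edgeR), whereas Fbxo32 and Trim63 had slopes of -0.06 and -0.07 (unadjusted p = 0.00869 and 0.0164), where 5.90% of genes had an unadjusted p under 0.05. The slopes of Igf1 and Mstn were then both 0.05 (unadjusted p = 0.0592 and 0.0626), and without the 3 libraries they were 0.07 and 0.06 (p = 0.0338 and 0.0820). The slope of Ddit4 was -0.08 without the 3 libraries (p = 0.0546) and -0.04 with the length contrast (p = 0.417), and that of Klf15 was -0.03 (p = 0.279) and -0.04 (p = 0.0581). The part of the length pattern in the slope of Foxo3 was not otherwise tested.

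The correlation with weight over the 16 mice was -0.69 for Fbxo32 (Spearman's rho -0.62; two-sided permutation p = 0.00312 and 0.0126, unadjusted, 10 relations) and larger in size than for all but 0.474% of the genes tested. It was -0.57 without the lightest and the heaviest mouse and -0.60 among the 13 other libraries. Trim63, Foxo3 and Mstn had r = -0.51, -0.52 and 0.53 (permutation p = 0.0420, 0.0378 and 0.0352), and 9.91%, 9.05% and 7.85% of the genes tested had a larger r in size. By rank only Mstn of these 3 had a p under 0.05, with rho = 0.56 (permutation p = 0.025), against -0.43 (p = 0.102) for Trim63 and -0.46 (p = 0.0722) for Foxo3. Among the 13 other libraries r was -0.42, -0.24 and 0.41. Without the lightest and the heaviest mouse, r was -0.41, -0.33 and 0.33 for these 3 genes. Igf1, the growth factor, and Klf15 did not pass the permutation test over the 16 mice. Igf1 had r = 0.43 with weight (rho 0.44, permutation p = 0.0928 and 0.0878), 0.30 without the lightest and the heaviest mouse and 0.33 among the 13. Klf15 had r = -0.44 (rho -0.50, permutation p = 0.0904 and 0.0511), -0.47 without those 2 mice and -0.65 among the 13 (permutation p = 0.0171). Within the labels the genes did not all keep the pooled direction. Fbxo32 had r = -0.63 over the 10 Npr1+/- mice and -0.70 over the 6 Npr1+/+ mice, and Mstn had 0.59 and 0.69. Foxo3 had -0.69 and 0.14, Igf1 had 0.64 and -0.03, Trim63 had -0.19 and -0.65, and Klf15 had -0.05 and -0.89. These differences between the labels were not tested.

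**Figure D3:**
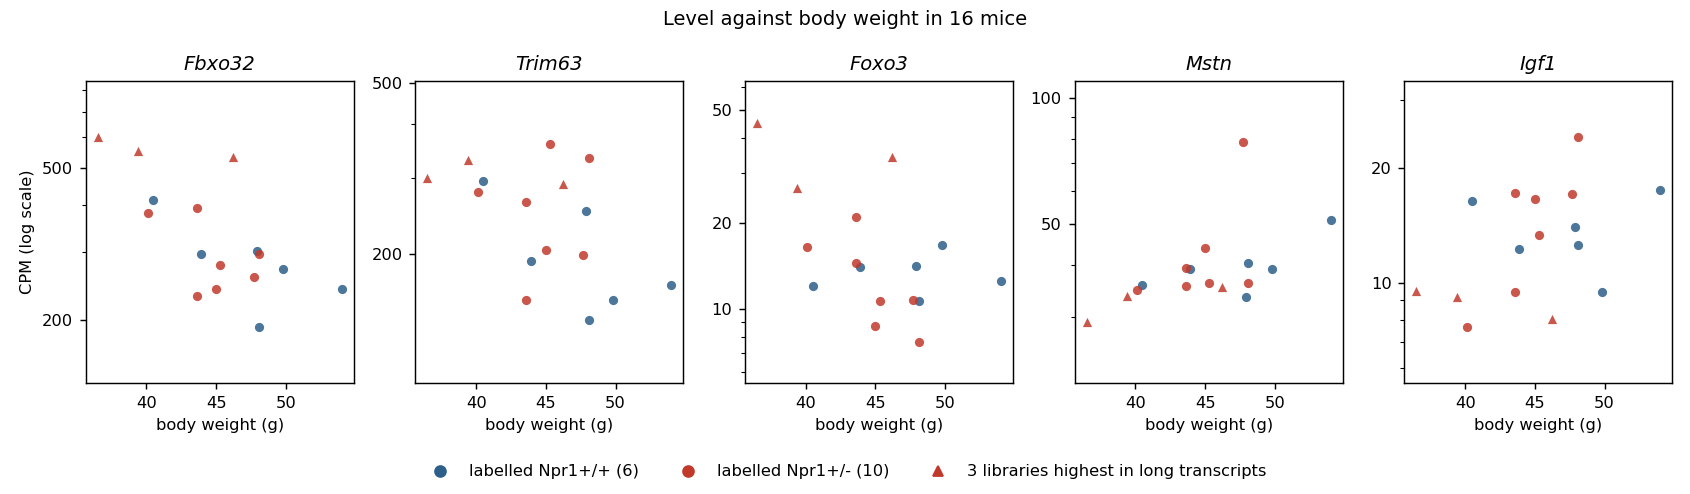
Level in CPM (log axis) of Fbxo32, Trim63, Foxo3, Mstn and Igf1 against body weight in g. Points are the 16 mice, blue for Npr1+/+ and red for Npr1+/- labels, and triangles are the 3 libraries highest in long transcripts. Fbxo32 was 601 CPM at 36.5 g and 240 CPM at 54.0 g, and the slope of Foxo3 was -0.03 without the triangles.

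In the pathway lists, 0 genes passed the adjustment for weight. At an unadjusted p under 0.05, 8 of 19 ubiquitin-system genes were counted, all with a negative slope. So were 10 of 27 genes of IGF and mTORC1 signaling and 5 of 21 of the myostatin and activin list. The same held for 2 of 18 FoxO and autophagy genes and 1 of 16 of the EDA2R group. Of 16 glucocorticoid-responsive genes, 3 had a negative slope and 1 a positive slope at that p. These counts stand beside the 17.1% of all genes. The smallest p with a negative slope were those of Ulk1, the kinase that starts autophagy (slope -0.13 log2 units per g, p = 0.00309), Tsc2, an inhibitor of mTORC1 (-0.14, p = 0.00427), and Rptor, a subunit of mTORC1 (-0.10, p = 0.00495). With a positive slope they were Hsd11b1, the enzyme that activates glucocorticoids (0.11, p = 0.00813), Bnip3l, a mitophagy receptor (0.04, p = 0.0879), and Id1, a BMP target (0.05, p = 0.102).

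Ddit4 had its smallest p for cage, with high levels in cage 675. Its 4 mice of cage 675 had 57.4, 49.6, 21.98 and 11.2 CPM, the 4 of cage 676 had 8.99 to 21.2 CPM, the 3 of cage 677 had 7.37 to 10.3 CPM and the 5 of cage 678 had 5.87 to 10.9 CPM. The highest pair, Npr1+/- mice 6 and 3, were both in cage 675, and every mouse of cage 675 lay above every mouse of cages 677 and 678. The F value of the cage term was 14.8 (unadjusted p = 6.88e-05, edgeR), and the adjusted p of 0.100 did not pass. The cage term called 4 genes, 0.0279% of those tested, and none of the 10 members. DESeq2 called Ddit4 (adjusted p = 3.71e-06). So did edgeR without Npr1+/+ mouse 3 or without Npr1+/- mouse 3, with adjusted p of 0.0347 and 0.0462, whereas without Npr1+/- mouse 9 it was 0.317. Without Npr1+/- mouse 3, 869 genes were called for cage, Foxo3 (adjusted p = 0.0419) among them. Ddit4 also had the widest spread among mice of the 10 genes. The SD of its log2 CPM within labels was 0.99, above that of 98.5% of all genes and of 99.2% of the genes of like level. Cage number is a housing label here, and what else the mice of a cage shared, such as the order of dissection, is not given in the sources used here and cannot be told apart from it.

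Igf1 was the other member with an unadjusted p under 0.05 for cage (p = 0.0154, adjusted p = 0.656, edgeR), so that 2 of 10 members were counted where 7.36% of all genes were. Its median was 8.76 CPM in cage 675, 12.3 in cage 677, 15.5 in cage 676 and 16.4 in cage 678. With the transcript length contrast as a covariate the unadjusted p of Igf1 was 0.134, and that of Ddit4 was 0.000833 (edgeR). Trim63 then had a p of 0.0340, where 4.43% of genes had a p under 0.05. Without the 3 libraries the p of Ddit4, Igf1 and Trim63 were 0.000119, 0.0989 and 0.0317, where 4.96% of genes had a p under 0.05. Of the pathway lists, Cdkn1a, the p53 target that encodes p21, passed for cage with an adjusted p of 0.0491 (edgeR). At an unadjusted p under 0.05, 7 of 27 genes of IGF and mTORC1 signaling and 6 of 16 glucocorticoid-responsive genes were counted. The counts were 2 of 19 ubiquitin-system genes and 1 of 18 FoxO and autophagy genes. They were 2 of 16 genes of the EDA2R group and 0 of 21 genes of the myostatin list. The lists were not refitted with the length contrast or without the 3 libraries. After Cdkn1a the smallest p were those of Errfi1, Per1, Cebpd, Igfbp3 and Foxo1.

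**Figure D4:**
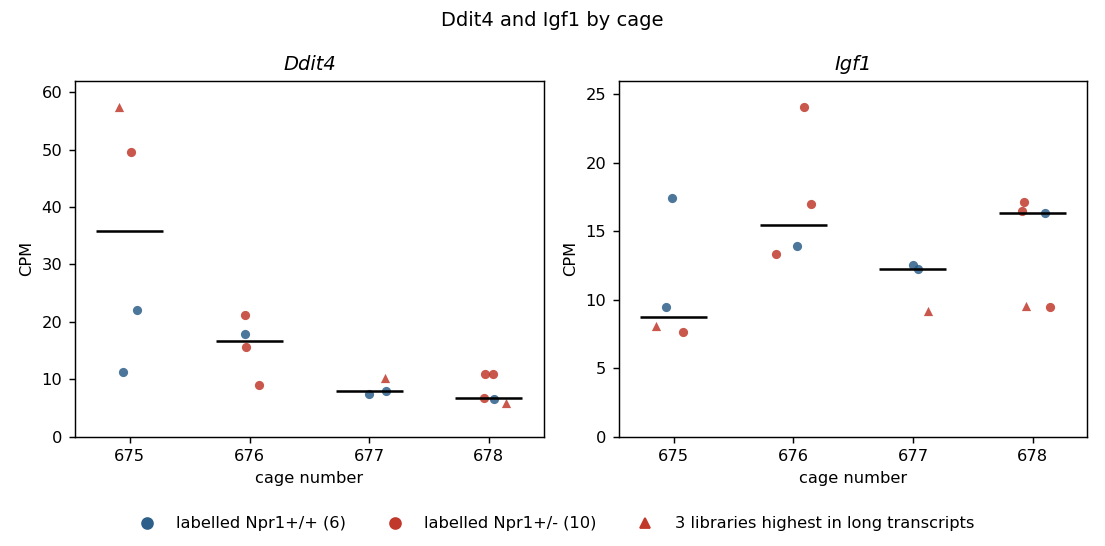
Level of Ddit4 and Igf1 in CPM by cage number. Points are the 16 mice, blue for Npr1+/+ and red for Npr1+/- labels, triangles are the 3 libraries highest in long transcripts, and black lines are cage medians. The Ddit4 levels of 57.4 and 49.6 CPM were both in cage 675, and the lowest Igf1 median, 8.76 CPM, was in the same cage.

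Some of the 10 genes varied together across mice and others did not. Of their 45 pairs, 8 had a permutation p under 0.05 for Pearson's r (two-sided, 100000 resamples, unadjusted), 3 positive and 5 negative, and 3 pairs did without the 3 libraries highest in long transcripts. High correlations were common among all genes in these libraries: the share of genes tested with an r above 0.5 in size was 51.4% for Fbxo32, 53.1% for Foxo3, 44.2% for Igf1, 29.0% for Trim63 and 24.2% for Eda2r, and between 3.87% and 18.4% for the other 5 genes. Fbxo32 and Trim63, the pair most often read together as atrophy markers, varied together with r = 0.72 (rho 0.74, permutation p = 0.00205 and 0.00173). The r of this pair was 0.68 without the 2 mice farthest from the median, 0.68 on residuals after label, cage and weight, and 0.70 among the 13 libraries without the 3 highest in long transcripts. Across all genes tested, 14.1% had a higher r with Fbxo32 than Trim63 had. Fbxo30, the third ligase, followed neither of them, with r = 0.15 and 0.01.

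Foxo3 and Fbxo32 had the highest r of all pairs, 0.81 (rho 0.61, permutation p = 0.00021 and 0.0132). That relation leaned on the 3 libraries: r was 0.43 among the other 13 and 0.18 once the leading principal component was taken out, against 0.71 on residuals. Foxo3 and Trim63 had r = 0.27. The contrast between long and short transcripts itself had r = 0.91 with Foxo3 (rho 0.79, permutation p = 1e-05 and 0.00044, the former the smallest that 100000 resamples can give) and 0.81 with Fbxo32 (rho 0.62, p = 0.00019 and 0.0113). It had r = 0.32 with Trim63 and -0.72 with Igf1 (rho -0.69, p = 0.00153 and 0.00406). Without the 2 mice farthest from the median contrast, these 4 values were 0.79, 0.64, 0.17 and -0.69, and among the 13 libraries without the 3 highest they were 0.66, 0.39, -0.07 and -0.65. Eda2r had r = -0.54 with the contrast (rho -0.53, permutation p = 0.0323 and 0.0373), -0.37 without the 2 farthest mice and -0.33 among the 13, and Mstn had r = -0.34 (rho -0.51, p = 0.199 and 0.0449), -0.11 and 0.04.

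Igf1 ran against Foxo3 with r = -0.77 (rho -0.72, permutation p = 0.0003 and 0.0022), and this held at -0.77 among the 13 other libraries and at -0.59 on residuals, but it was -0.29 once the leading component was taken out. Igf1 and Eda2r were high in the same mice, with r = 0.73 (rho 0.68, permutation p = 0.00174 and 0.00444), 0.65 among the 13 and 0.55 without the leading component. Mstn was low where Fbxo32 and Trim63 were high, and it had r = 0.08 with Fbxo30. It had rho = -0.88 with Fbxo32 (permutation p = 3e-05) with a smaller r of -0.55 (p = 0.0227), and rho = -0.63 with Trim63 (p = 0.0102) with r = -0.49 (p = 0.0411). Among the 13 other libraries these r were -0.42 and -0.39, and on residuals they were -0.28 and -0.51. The other 2 pairs were Fbxo32 with Igf1 at -0.59 (permutation p = 0.0159) and Foxo3 with Eda2r at -0.57 (p = 0.0195), which were -0.34 and -0.40 among the 13 and -0.25 and -0.52 on residuals. Mstn and its antagonist Fst had r = 0.10, and Ddit4 and Klf15, both glucocorticoid-responsive, had r = -0.30. Cages held too few mice for values within a cage.

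**Figure D5:**
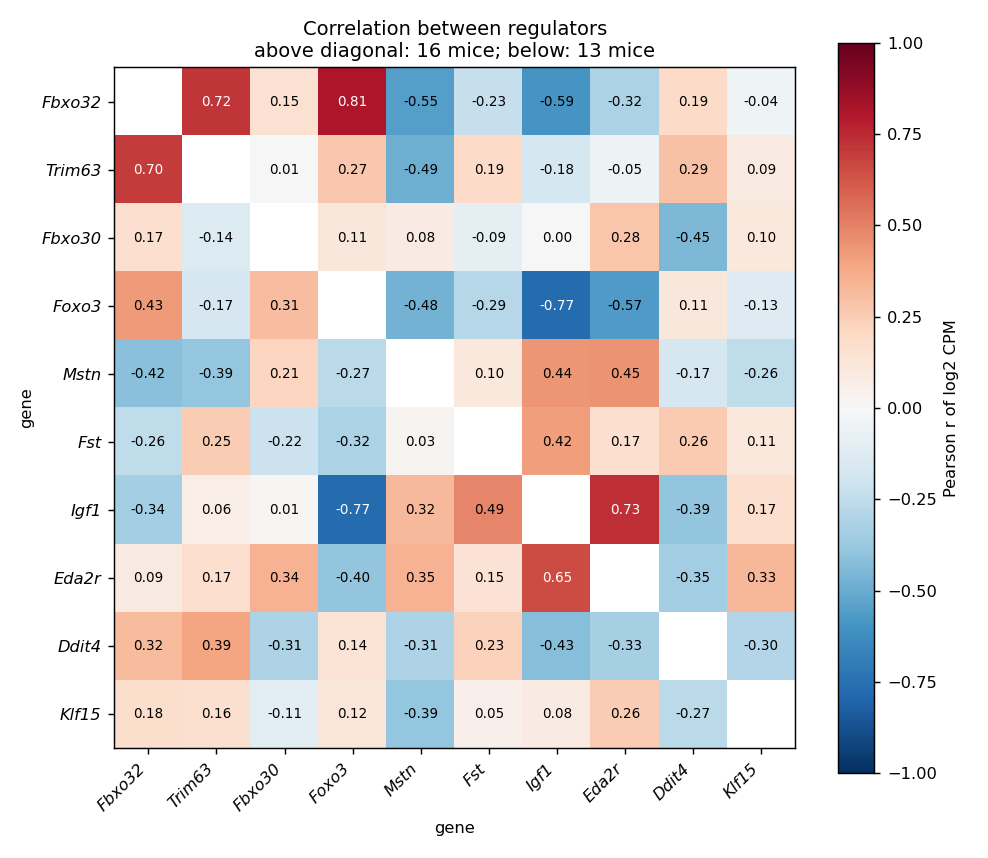
Pearson r of log2 CPM for the 45 pairs of the 10 genes, over all 16 mice above the diagonal and over the 13 mice without the 3 libraries highest in long transcripts below it. Red is positive and blue negative. Fbxo32 with Trim63 kept a similar value on both sides, 0.72 and 0.70, whereas Fbxo32 with Foxo3 was 0.81 above and 0.43 below the diagonal.

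Levels of cell type markers moved with some of these genes, in libraries where a high r was common among all genes. An r above 0.5 in size was found for 51.4% of genes with Fbxo32, 53.1% with Foxo3 and 44.2% with Igf1. The share was 29.0% with Trim63, 24.2% with Eda2r and at most 18.4% with the rest. No such share was computed for the marker sums, so the counts below do not single out cell types. Of 120 relations of 12 summed marker lists with the 10 genes, 32 had a permutation p under 0.05 for Pearson's r, 15 positive and 17 negative, and 13 passed a Benjamini-Hochberg adjustment over the 120. The 32 were 7 for Fbxo32, 5 each for Foxo3 and Igf1, 4 for Eda2r, 3 each for Trim63 and Fst, 2 each for Mstn and Ddit4, 1 for Klf15 and 0 for Fbxo30. No marker of the 12 lists was at 0, but the sums add CPM and several were carried mostly by a single gene. Chodl had a mean of 13.8 CPM in the satellite cell list, against 1.42 for Pax7, 1.51 for Myf5 and 0.72 for Calcr. Rgs5 led the mural list (763 CPM, the next 119) and Fabp4 the adipocyte list (454, the next 41.9). Dcn led the fibroblast list (623, the next 186) and Hbb-bs the erythrocyte list (217, the next 23.9). All p below are from permutation and unadjusted, the first for r and the second for rho.

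Trim63 and Mstn moved with the fast-fiber and satellite cell sums in opposite senses. The slow-fiber sum had r = 0.02 with Trim63 (permutation p = 0.946) and -0.28 with Mstn (permutation p = 0.291). The fast-fiber sum includes Acta1 and Ckm, so it is in part a level of muscle fiber transcripts in general. The summed level of the 10 fast-fiber markers had r = 0.82 with Trim63 (rho 0.82, permutation p = 0.00022 and 0.00015) and -0.75 with Mstn (rho -0.67, p = 9e-05 and 0.00534), 0.81 and -0.71 among the 13 other libraries and 0.86 and -0.62 without the 2 mice farthest from the median of the marker sum. The satellite cell sum, carried mostly by Chodl, had r = -0.72 with Trim63 (rho -0.75, p = 0.0015 and 0.00123). With Mstn it had r = 0.61 (rho 0.65, p = 0.00915 and 0.00726), and among the 13 these values were -0.82 and 0.70. Fbxo32 had r = 0.59 with the fast-fiber sum (p = 0.017), and the 4 mural markers had -0.54 with Trim63 (p = 0.025), -0.62 with Fbxo32 (p = 0.00806) and 0.57 with Klf15 (p = 0.0239; rho 0.35, p = 0.184).

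Foxo3 and Fbxo32 were high where the endothelial sum was high, and Igf1 and Eda2r were low there. The summed level of the 6 endothelial markers was 310 to 497 CPM in libraries 5, 6 and 7 and 159 to 265 CPM in the other 13. It had r = 0.95 with Foxo3 (rho 0.85, permutation p = 1e-05 and 0.00011), 0.82 with Fbxo32 (rho 0.62, p = 0.00018 and 0.0125), -0.77 with Igf1 (rho -0.84, p = 0.0002 and 9e-05) and -0.59 with Eda2r (rho -0.62, p = 0.016 and 0.0129). Among the 13 these were 0.79, 0.43, -0.87 and -0.44, and without the 2 mice farthest from the median they were 0.87, 0.66, -0.85 and -0.46. Eda2r also had r = -0.57 with the 4 Schwann cell markers (rho -0.59, p = 0.0241 and 0.0189), and Igf1 had -0.49 with them (rho -0.53, p = 0.0572 and 0.037).

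The fibroblast, adipocyte and macrophage sums ran the other way, high with Igf1 and low with Foxo3. Igf1 had r = 0.78 with the 6 fibroblast markers (rho 0.79, permutation p = 0.00059 for both), 0.78 with the 7 adipocyte markers (rho 0.76, p = 0.00023 and 0.00091) and 0.71 with the 7 macrophage markers (rho 0.71, p = 0.00263 and 0.00272). Among the 13 these were 0.74, 0.78 and 0.68, and without the 2 mice farthest from the median they were 0.83, 0.67 and 0.68. Foxo3 had r = -0.63 with the fibroblast (p = 0.00876), -0.65 with the adipocyte (p = 0.00676) and -0.67 with the macrophage markers (p = 0.00423), and -0.44, -0.47 and -0.50 among the 13. Fbxo32, the target of Foxo3, had the same sign as Foxo3 for these lists. Fbxo32 had r = -0.63 with the fibroblast (p = 0.00957) and -0.68 with the macrophage markers (p = 0.00397), and -0.43 and -0.48 among the 13. The 5 erythrocyte markers had r = -0.58 with Fbxo32 (p = 0.0171) and -0.60 with Foxo3 (p = 0.0153), and -0.31 and -0.29 among the 13.

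Fst, the myostatin antagonist, was high in mice with high fibroblast, erythrocyte and macrophage sums. Fst had r = 0.69 with the fibroblast markers (rho 0.68, permutation p = 0.00375 and 0.00468), 0.68 with the erythrocyte markers (rho 0.65, p = 0.00285 and 0.00801) and 0.64 with the macrophage markers (rho 0.61, p = 0.0086 and 0.014). Among the 13 these were 0.75, 0.80 and 0.74, and without the 2 farthest mice 0.63, 0.65 and 0.55. Eda2r, the receptor, had r = 0.61 with the adipocyte markers (rho 0.69, p = 0.0118 and 0.00465), 0.56 among the 13 and 0.46 without the 2 farthest mice, and 0.54 with the fibroblast markers (rho 0.48, p = 0.0305 and 0.0645). The 4 B cell markers summed to at most 2.79 CPM, and 1 of them passed the count filter. They had r = -0.64 with Ddit4 (rho -0.37, p = 0.00819 and 0.155), -0.13 without the 2 farthest mice, -0.56 with Fbxo32 (p = 0.0226) and 0.52 with Igf1 (p = 0.0405), and the mural markers had -0.51 with Ddit4 (rho -0.32, p = 0.047 and 0.231). The tendon sum had r = -0.13 with Fbxo32 and -0.02 with Ddit4 over the 16 mice, and -0.69 and -0.61 among the 13. The part of these cell types in the differences between mice was not tested.

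The regulatory sequence at the start of 8 of the 10 genes was read from RefSeq (GRCm38.p6), as 250 bases before and 50 bases after the start site, 5′ to 3′ on the strand of the gene. Promoters are shown for Trim63, the ligase that tracked Fbxo32, for Mstn, which ran opposite to it, and for Eda2r, which holds the same FoxO motif as Trim63. Capitals mark matches to the FoxO motif GTAAACA, which reads TGTTTAC on the other strand, to the glucocorticoid receptor hexamer AGAACA, which reads TGTTCT on the other strand, to the E-box CAGCTG bound by myogenic factors, each searched on both strands, and to the TATA box TATAAA on the strand of the gene.
Trim63, chr4:134314870-134315169, plus strand: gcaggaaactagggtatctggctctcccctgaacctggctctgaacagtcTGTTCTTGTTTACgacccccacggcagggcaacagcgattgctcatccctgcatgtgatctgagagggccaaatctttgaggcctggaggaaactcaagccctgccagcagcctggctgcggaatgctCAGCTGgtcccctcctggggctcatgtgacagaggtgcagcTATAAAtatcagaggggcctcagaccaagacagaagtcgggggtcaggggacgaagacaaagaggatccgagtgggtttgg
Eda2r, chrX:97377160-97377459, minus strand: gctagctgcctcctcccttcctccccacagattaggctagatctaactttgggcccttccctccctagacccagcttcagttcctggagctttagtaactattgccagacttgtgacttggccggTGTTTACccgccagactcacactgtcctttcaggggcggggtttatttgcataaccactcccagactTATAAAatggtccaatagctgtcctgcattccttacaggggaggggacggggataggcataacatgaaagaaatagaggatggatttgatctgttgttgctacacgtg
Mstn, chr1:53061390-53061689, plus strand: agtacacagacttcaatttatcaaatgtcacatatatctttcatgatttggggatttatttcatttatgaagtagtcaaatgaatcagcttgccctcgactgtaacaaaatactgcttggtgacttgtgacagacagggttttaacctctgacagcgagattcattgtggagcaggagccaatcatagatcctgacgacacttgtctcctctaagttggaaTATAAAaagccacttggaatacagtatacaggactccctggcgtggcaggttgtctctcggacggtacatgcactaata
In Trim63 the glucocorticoid receptor hexamer, 200 bases before the start, ran directly into the FoxO motif at 194 bases, and the capitals join there. An E-box followed at 72 bases and a TATA box at 31 bases before the start. Eda2r held the FoxO motif at 125 bases and a TATA box at 58 bases before the start, Mstn a TATA box at 29 bases, and Igf1 an E-box at 157 bases. The windows of Foxo3, Fbxo30, Ddit4 and Klf15 held none of the 4 motifs. Of 32851 promoters of this length, 3.65% held the FoxO motif, 19% the glucocorticoid receptor hexamer, 16.3% the E-box and 8.32% the TATA box. A match is a description of the letters and not evidence of binding.

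Genes whose pattern over the 16 mice was most like that of a member were listed by Pearson r of log2 CPM among genes with a mean of at least 1 CPM. For Ddit4 they were Klf2 (r = 0.93), Arrdc2 (0.92) and Depp1 (0.90), and for Fbxo32 they were Lpin1 (0.96), Pelp1 (0.95) and Gys1 (0.95). For Trim63 they were Ergic1 (0.95), Stip1 (0.93) and Mief1 (0.93). For Foxo3 they were Uggt1 (0.98), Eif3a (0.97) and Ptpn14 (0.97). Among the secreted regulators they were Dnaja1 (0.89), Pkn2 (0.84) and Zfp597 (0.84) for Mstn, Ap3s1 (0.92), Upp2 (0.89) and Snx10 (0.87) for Igf1, and Ccn3 (0.86), Mex3d (0.81) and Fcrls (0.80) for Fst. For Eda2r they were Ptgr1 (0.83), Snx7 (0.82) and Zfp984 (0.80), for Fbxo30 AW549877 (0.89) and Cdc27 (0.83), and for Klf15 Camta1 (0.81), Rbm3 (0.78) and Rusc1 (0.77). These values describe likeness across 16 mice, and no test was made on genes chosen for it.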

How the data were processed

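Counts of reads per gene were deposited by the authors as 1 table for the 16 libraries, with gene positions and lengths. Per the labels and the study's methods, total RNA was extracted with an RNeasy kit, mRNA libraries were sequenced as 52-bp pairs, reads were aligned with STAR and counted with featureCounts, and the submitters' processing notes name STAR 2.7.2b, featureCounts 1.6.4 and the builds GRCm38 and mm10. The labels name a Tecan mRNA kit and the paper another kit. Whether counting used strand is not given in the sources used here, so overlapping genes may share reads. The 37 genes of the mitochondrial genome summed to 0 counts.

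Symbols were found for 55144 of 55471 gene IDs in a table of gene names. Counts were filtered with filterByExpr by label, scaled by TMM and fitted with edgeR 4.0.16 (robust quasi-likelihood fit, R 4.3.3) with label, cage and body weight as terms, which leaves 10 residual degrees of freedom; p-values were Benjamini-Hochberg adjusted over 14331 genes at 0.05. Log2 fold changes are Npr1+/- minus Npr1+/+. The fit was tested on simulated data. CPM and RPKM are TMM-scaled, and correlations used log2 CPM with a prior count of 2. Correlation p-values are left unadjusted. The long and short transcripts of the length contrast are the top and bottom 10% of genes by longest transcript in the reference. Named genes were all 10 members, Npr1, and, from each comparison over the pathway lists, the genes that passed or the 3 smallest p in each direction (for cage the 6 smallest p), and the 3 genes most like each member, of which 1 is not reported here. The members, pathway lists and marker lists were chosen with earlier results of these data known, and the relations with the length contrast and with marker sums were added after the data were seen. Libraries are labelled as replicates and the mice are separate animals. Alternatives were DESeq2 1.42.0, limma-voom (limma 3.58.1), other scalings, filters and covariates, a surrogate variable (sva 3.50.0), a replicate block, and leaving out each library.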

Additional observations from a re-analysis of the deposited data

Results flagged for a closer look

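In the 20 groups made by the 10 genes and the 2 labels, a single mouse stood far from its group in 3, where chance gives about 1 in 20, or 1 group. All 3 were the highest of the 10 libraries labelled Npr1+/-. Mstn was at 6.30 log2 CPM in Npr1+/- mouse 8. The nearest mouse of that label was at 5.46, and Npr1+/+ mouse 3 was at 5.68. Klf15 was at 6.77 log2 CPM in Npr1+/- mouse 9. The nearest of that label was at 6.26, and Npr1+/+ mouse 4 was at 6.36. Fbxo30 was at 4.91 log2 CPM in Npr1+/- mouse 5, the most deeply sequenced library. The nearest of that label was at 4.54, and Npr1+/+ mouse 5 was at 4.72.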

How the results depend on the processing

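No member passed for the label under any of the alternatives. For the label, 8 genes in all were called without the count filter, 6 by DESeq2, 2 with the transcript length contrast and 1 without the 3 libraries highest in long transcripts. Log2 fold changes near 0 changed sign. Eda2r was at 0.015 with RLE scaling, 0.016 with DESeq2 and without the filter (0.0157 and 0.0162), 0.010 with limma-voom, 0.023 with 1 surrogate variable, 0.060 with the label alone, 0.092 with weight as the only covariate, 0.031 with the length contrast and 0.012 without the 3 libraries. Fbxo32 was at -0.035 with the surrogate variable, -0.060 with the length contrast and -0.22 without the 3 libraries. Foxo3 was at -0.016 and -0.14 under the last pair of settings, Trim63 at -0.042 without the 3 libraries, Mstn at -0.025 with cage as the only covariate, and Igf1 at 0.097 with weight as the only covariate and 0.015 without the 3 libraries. The cause was not tested for these or for the other values given in this section.

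For weight, 5 members were counted at an unadjusted p under 0.05. The slope of Fbxo30 was 0.0015 log2 units per g with library size scaling, 0.0019 with the length contrast and 0.0044 without the 3 libraries, and that of Ddit4 was 0.013 with weight alone and 0.072 with the label as the only covariate. For cage, 86 genes were called by DESeq2 (1 member, Ddit4), 23 without the filter, 10 with the surrogate variable, 10 with the length contrast, 2 without the 3 libraries, 1 by limma-voom, 1 with at least 10 counts in every mouse and 0 with library size scaling, and 2 members were counted at an unadjusted p under 0.05. With the 3 libraries left out, 3 pairs of members and 2 members with weight had a permutation p under 0.05.

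Leaving out each library in turn gave 0 to 3 genes called for the label, 0 to 3158 for weight (0 to 3 members; both highest without Npr1+/- mouse 3) and 0 to 869 for cage (0 to 2 members). The log2 fold change for the label ran from -0.076 to 0.16 for Fbxo32, -0.19 to 0.053 for Fbxo30, -0.25 to 0.47 for Foxo3, -0.23 to 0.24 for Igf1, -0.051 to 0.25 for Eda2r and -0.048 to 0.14 for Klf15. It ran from 0.34 to 0.86 for Ddit4, 0.33 to 0.74 for Fst, 0.041 to 0.36 for Trim63 and 0.032 to 0.37 for Mstn. The slope of Foxo3, -0.11 over all mice, ran from -0.17 without Npr1+/- mouse 3 to -0.055 without Npr1+/- mouse 7. Slopes ran from -0.024 to 0.0046 for Fbxo30, -0.068 to 0.018 for Ddit4 and -0.030 to 0.0056 for Klf15. Between 2 and 4 members had a permutation p under 0.05 with weight, and between 6 and 11 pairs with each other.

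The labels share replicate numbers 1 to 6. Deviations of same-numbered libraries had a mean r of 0.078 over 6 pairs (0.033 to 0.17), against -0.008 over the 54 other pairs. This difference was not tested, and the numbers were not used to pair the mice in the main fit. With the replicate block in place of cage, 2 genes were called for the label and 1 for weight, Klf15 was at -0.17 for the label and Ddit4 at 0.046 per g, and no member passed. Of 1087 alternative values in all, 991 were classed as unchanged. That class holds estimates that kept direction and call. It also holds counts that moved little and values without a direction, such as the adjusted p for cage. Depth limits Fst most, which had as few as 19 counts.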
